A study of Mus musculus with 6 samples.

Results

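The immunoglobulin kappa light chain locus was read as all array features on mouse chromosome 6 between the probes of Serbp1 and Rpia (mm9) that were well above background on at least 3 of 6 arrays. Of 92 features in that interval, 41 met the rule, out of 27975 of 41174 features on the whole array. The members were chosen by position and selected on measured detection, so that a member was detected is no result. The arrays measured epididymal white adipose tissue of male C57BL/6 mice aged 9 to 10 weeks, 1 array per animal. The 3 patDp/+ mice carried an extra, paternally inherited copy of the stretch of chromosome 7 that matches human 15q11-13, and the 3 wild type mice did not. The kappa locus lies on another chromosome than the duplication. No label mentions a sort of cells, so B cells, plasma cells and all other cells of the fat pad contributed to each array, and fewer cells of a type cannot be told apart from less RNA per cell.

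An antibody pairs 2 heavy chains with 2 light chains, and in the mouse most light chains are kappa. Each B cell joins 1 of many variable (V) segments of the locus to a joining (J) segment and transcribes it together with the single constant (C) segment. A constant-region probe therefore reads the kappa RNA of all B and plasma cells together, while a V probe reads only the cells that chose that segment or a close relative. Segments are numbered by family and by their order counted from the constant end, so that Igkv1-133 lies near Serbp1 and Igkv3-7 near the constant end. Through the RefSeq gene table (assembly GRCm38.p6), 10 of the 41 members received a segment name. The others are called here by the transcript or record that the array design gives.

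The sequences show how much the probes have in common, and which transcripts each probe reads was not tested. In the mm9 stretch around the Igkv4 segments, the 60-base probes below belong to 6 features that were lower in patDp/+ and to their neighbour Igkv4-72. They are written 5′ to 3′, and the capitals mark the longest run that each shares with another member of the locus.
ENSMUST00000103347 probe at chr6:69193231-69193290 (minus strand): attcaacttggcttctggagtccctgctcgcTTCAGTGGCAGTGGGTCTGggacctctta
ENSMUST00000103359 probe at chr6:69557315-69557374 (minus strand): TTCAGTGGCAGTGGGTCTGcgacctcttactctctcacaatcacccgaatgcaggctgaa
ENSMUST00000103351 probe at chr6:69327947-69328006 (minus strand): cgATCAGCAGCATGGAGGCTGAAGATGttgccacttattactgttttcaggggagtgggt
ENSMUST00000103361 probe at chr6:69598840-69598899 (minus strand): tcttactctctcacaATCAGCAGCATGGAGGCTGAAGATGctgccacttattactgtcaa
Igkv4-70 probe at chr6:69218041-69218100 (minus strand): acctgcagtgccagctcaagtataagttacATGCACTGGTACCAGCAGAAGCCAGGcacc
Igkv4-72 probe at chr6:69176986-69177045 (minus strand): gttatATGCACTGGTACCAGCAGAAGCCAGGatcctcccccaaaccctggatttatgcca
ENSMUST00000103357 probe at chr6:69526135-69526194 (minus strand): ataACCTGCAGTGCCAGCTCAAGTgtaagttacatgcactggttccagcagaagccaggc
The probes of ENSMUST00000103347 and ENSMUST00000103359 share 19 bases, those of ENSMUST00000103351 and ENSMUST00000103361 share 25, and those of Igkv4-72 and Igkv4-70 share 26. In the array design, the Igkv4-70 probe is itself listed for 4 transcripts, among them ENSMUST00000103351 and, from outside this stretch, ENSMUST00000103337. The longest run of the ENSMUST00000103357 and Igkv4-70 probes has 21 bases. Placed side by side, these probes differ at single bases only over the part where they overlap. Such features share sequence and are not independent readings of single segments. Over the whole locus, 17 pairs of members share a run of at least 20 bases, 16 members belong to such a pair, and 9 of the pairs lie within the Igkv4 stretch.

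Near Igkv1-117 the probes below separate a shared part from a joined part. The second Igkv1-117 probe starts 45 bases further on than the first, and its design record describes a V segment joined to a J segment. The capitals again mark the longest run shared with another member.
Igkv1-117 probe at chr6:68071741-68071800 (plus strand): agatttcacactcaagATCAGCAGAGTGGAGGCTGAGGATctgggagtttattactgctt
Igkv1-117 probe at chr6:68071786-68071845 (plus strand): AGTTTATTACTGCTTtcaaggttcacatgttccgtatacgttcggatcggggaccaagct
ENSMUST00000103318 probe at chr6:68102545-68102604 (plus strand): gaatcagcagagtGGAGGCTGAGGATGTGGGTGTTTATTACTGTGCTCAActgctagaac
NAP100137-001 probe at chr6:68253099-68253158 (plus strand): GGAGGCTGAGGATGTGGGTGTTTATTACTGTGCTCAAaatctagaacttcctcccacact
The ENSMUST00000103318 and NAP100137-001 probes have a run of 37 bases in common and differ after it, towards the V-J junction.

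No member was named for the kappa constant segment. The features at the constant end of the interval were well above background on at most 1 array. The probe of record AF152371, a kappa light chain messenger RNA, is placed by the design beside Igkv14-111, and both are shown to compare them. The longest run that it shares with another labelled kappa probe has 11 bases.
AF152371 probe at chr6:68207137-68207196 (plus strand): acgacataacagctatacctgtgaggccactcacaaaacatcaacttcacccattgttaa
Igkv14-111 probe at chr6:68206771-68206830 (plus strand): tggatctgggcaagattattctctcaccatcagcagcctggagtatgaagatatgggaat
The AF152371 letters closely follow the end of the kappa constant domain as known from textbooks; no reference of it was used here. This reading was made after the values had been seen and rests on no label of the files, so the feature is treated as the constant-region reading with that limit.

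The constant-domain feature AF152371 had processed intensities of 2473, 2585 and 2832 in the wild type animals and 1342, 2053 and 2584 in the patDp/+ animals. After each array was divided by its 75th percentile, every patDp/+ value lay below every wild type value, but the third patDp/+ animal lay close to the wild type range. On the log2 scale relative to that percentile, the wild type level was 1.40 ± 0.03 (SD, n = 3) and the patDp/+ level 0.88 ± 0.50 (SD, n = 3). The log2 difference was -0.52 ± 0.24 (SE), with limma's adjusted p = 0.948. By slide, each of which held 1 animal of each group, the difference was -1.08, -0.39 and -0.09. The first patDp/+ animal set much of it, since the difference was -0.25 without that array and -0.75 without the third patDp/+ array, where its unadjusted p was under 0.05. That p was also under 0.05 in the authors' deposited table (-0.49), with array weights (-0.58) and with a trended, robust variance model (-0.52).

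No feature of the array passed limma's test after adjustment over all 27975 features (percent called 0), while 1471 had an unadjusted p under 0.05. The smallest adjusted p in the locus was 0.440. All kappa differences below are therefore described by their size and their spread, and all adjusted p are limma's. An exact permutation test of 3 against 3 animals cannot go below 0.10.

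Of the 41 kappa features, 8 were lower in patDp/+ at an unadjusted limma p under 0.05, against 3.16% of all features, and 2 were higher, against 2.09% of all features. All 3 patDp/+ values lay below all 3 wild type values for 10 members (6.59% of all features) and above them for 2 members (4% of all features). The median log2 difference was -0.12 over the members and -0.02 over all features, with 23 members below 0 and 18 above it. The median differed between slides, at 0.13, -0.53 and -0.09, so the locus as a whole had no direction common to the 3 slides.

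**Figure D1:**
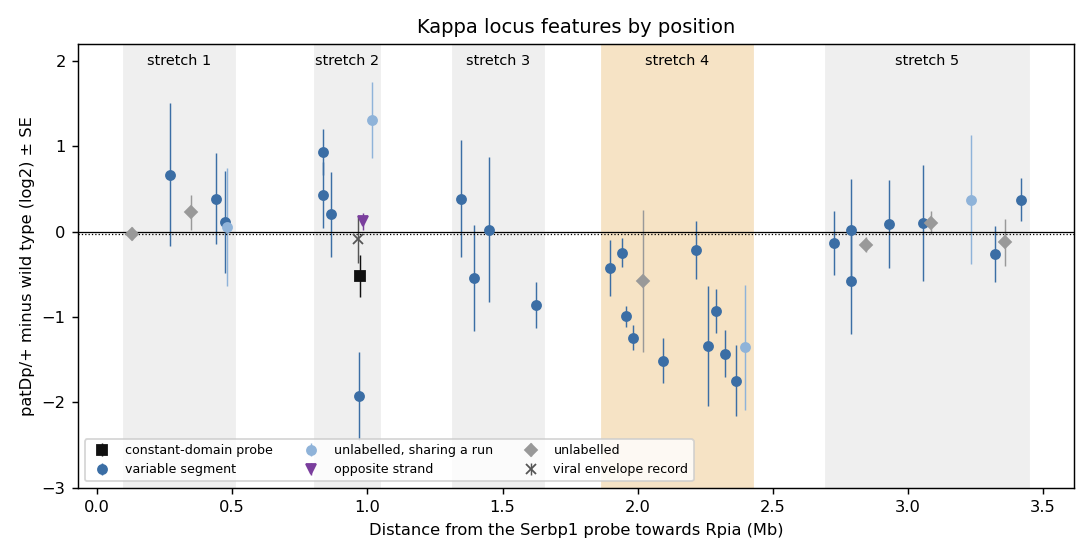
Log2 difference between patDp/+ and wild type animals (y axis, with limma's SE) for the 41 kappa locus features against the distance of the probe from that of Serbp1 (x axis, Mb), with marker shape and colour by class. The 12 features of stretch 4 all lie below 0, from -1.75 to -0.21, whereas features of the other stretches lie on both sides; the dotted line is the median of all features. These are processed-signal values. After normexp the median was 0.10 for stretch 4, 0.12 for all features and 0.65 for the 4145 array features at or below the members' median level. Of the 12 features of stretch 4, 8 were brighter than that level.

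Position divided the members. Where neighbouring members were over 0.25 Mb apart the locus was split, which gave 5 stretches of 6, 8, 4, 12 and 11 features from the Serbp1 end. The median log2 differences were 0.17, 0.16, -0.26, -1.12 and 0.02 in that order. Stretch 4 runs from Igkv4-74 to ENSMUST00000103362 (chr6:69135009-69631605, all probes on the minus strand) and holds Igkv4-72 and Igkv4-70. All of its 12 features had a negative difference, against 56.6% of all features. Of the 12, 6 were lower at an unadjusted p under 0.05, against 3.16% of all features. Outside it, 11 of 29 features had a negative difference, and 2 were lower and 2 higher at that threshold, where 2.09% of all features were higher. Within slides, 8, 11 and 12 of the 12 features were lower in the patDp/+ animal, and the median difference was -0.68, -0.86 and -1.60. The stretches were drawn from gaps in position, but stretch 4 was singled out after its values had been seen, and its features share sequence, so no test is given for it.

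ENSMUST00000103347, the second brightest feature of the stretch, read 321, 417 and 479 in wild type and 212, 226 and 197 in patDp/+. All 3 patDp/+ animals were below the lowest wild type animal. Its log2 difference was -0.99 ± 0.12 (SE), with limma's adjusted p = 0.440. By slide the difference was -0.79, -0.95 and -1.24.

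Igkv4-70 read 77.0, 87.0 and 123 in wild type and 45.3, 40.1 and 39.9 in patDp/+, again without overlap. The log2 difference was -1.24 ± 0.15 (SE), with limma's adjusted p = 0.440. Its neighbour Igkv4-72, which shares 26 bases with it, read 269.6, 377 and 467 in wild type and 297, 321 and 349 in patDp/+. These groups overlapped, and the difference of -0.24 ± 0.17 (SE) had an adjusted p = 0.954 from limma. These features, with a run of 26 bases in common, thus had unlike values. The ENSMUST00000103357 probe is closer to that of Igkv4-70, differing at single bases only where they overlap. Its log2 difference was -0.92. Whether any of these differences differed was not tested.

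ENSMUST00000103361 read 109.9, 189.6 and 318 in wild type and 69.4, 80.7 and 36.4 in patDp/+. Its log2 difference was the largest of the stretch, -1.75 ± 0.42 (SE), with limma's adjusted p = 0.931. ENSMUST00000103351, with which it shares 25 bases, read 51.1, 48.6 and 87.4 in wild type and 30.1, 21.5 and 16.9 in patDp/+. The groups did not overlap in either feature. The second feature had a difference of -1.51 ± 0.27 (SE), with limma's adjusted p = 0.794, and was not well above background in the third patDp/+ animal.

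ENSMUST00000103359 read 159, 129 and 283 in wild type and 73.0, 80.5 and 58.7 in patDp/+. Its difference was -1.43 ± 0.27 (SE), with limma's adjusted p = 0.821, and the groups did not overlap. ENSMUST00000103357 read 77.4, 74.1 and 139.8 in wild type and 60.1, 57.6 and 39.3 in patDp/+, a difference of -0.92 ± 0.26 (SE) with limma's adjusted p = 0.931. In the remaining 6 features of the stretch the groups overlapped, and differences ran from -1.35 to -0.21. One of these, ENSMUST00000103362, was high in a single wild type animal (148, against 10.5 to 33.4 in the other animals).

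**Figure D2:**
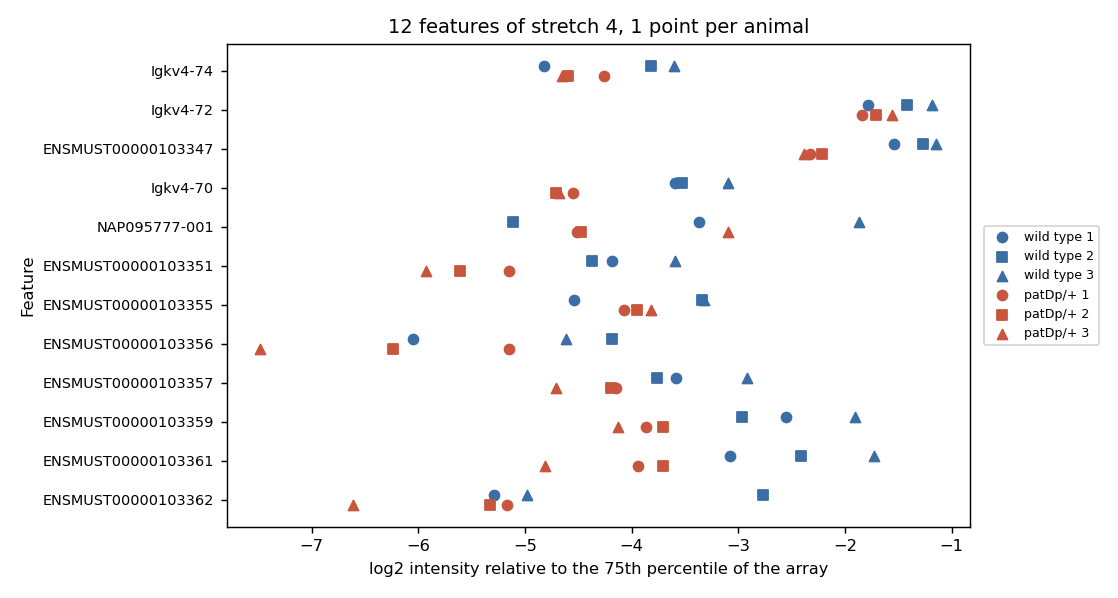
Log2 intensity relative to the 75th percentile of each array (x axis) for the 12 features of stretch 4 (y axis, in order of position with the Serbp1 end at the top), with 1 point per animal, wild type in blue and patDp/+ in red, and the same marker for animals on 1 slide. In 6 features, among them Igkv4-70 and ENSMUST00000103347, all red points lie to the left of all blue points, as in 6.59% of all features.

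The third patDp/+ array had the lowest share of spots well above background, 63.8% against 66.9% to 72.1% on the others, and the highest dimmest such signal, 27.2 against 17.0 to 19.6. Of the 41 members, 24 were well above background on all 6 arrays. Without that array the median of stretch 4 was -0.93, and over all choices of 1 array left out it lay between -1.22 and -0.93. Without it the difference of Igkv4-70 was -1.22, that of ENSMUST00000103347 -0.96 and that of ENSMUST00000103361 -1.41, and the 6 features of the stretch with an unadjusted p under 0.05 kept it with any 1 array left out.

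Normexp background correction with an offset of 50 changed the sign of some of these features. Background removal and offset were changed together, and their separate parts were not tested. With normexp correction of the raw intensities, the median difference of all features moved from -0.02 to 0.12, and the share of all features below 0 went from 56.6% to 35.2%. Over the 4145 features at or below the median level of the members, a set dimmer than 8 of the 12 features of stretch 4, the median moved from -0.02 to 0.65. After normexp the median of stretch 4 was 0.10 and that of the 41 members 0.44. In stretch 4, 5 of the 12 features stayed negative, and 6 lay below and 6 above the median of all features. The highest of the 12, Igkv4-74 at 0.44, lay below the 0.65 of the dimmer set, as did the median of the 41 members. Over the locus, 9 members were negative after normexp, against 23 with the processed signal, and 1 member, ENSMUST00000103347 (-0.49), was lower at an unadjusted p under 0.05. With the processed signal, after quantile normalization and in the authors' deposited table, all 12 features of stretch 4 were negative and below the median of all features; their median was -0.42 in the deposited table.

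**Figure D3:**
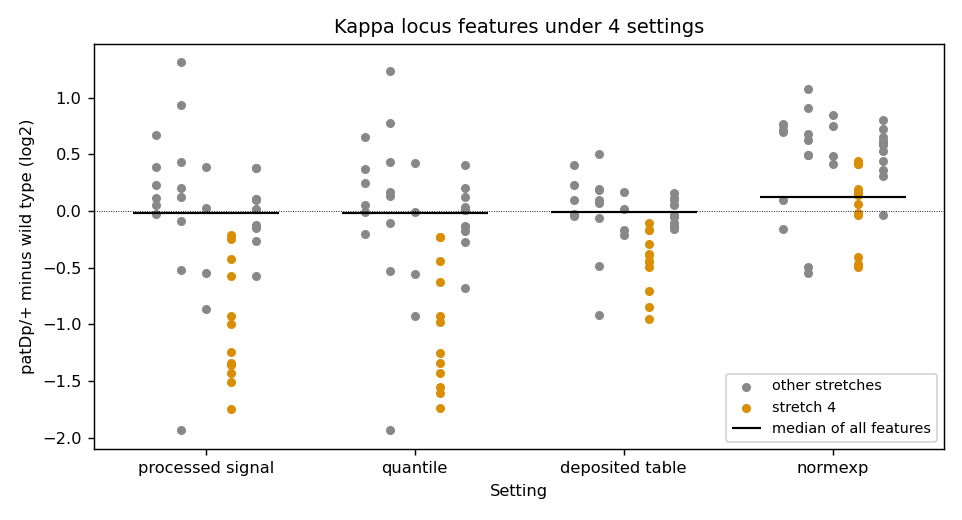
Log2 difference between patDp/+ and wild type (y axis) of the 41 members under 4 settings (x axis), with stretch 4 in orange, the other stretches in grey and a bar at the median of all features. All 12 orange points lie below the bar in the first 3 settings, and after normexp, where the bar stands at 0.12, 6 lie below and 6 above it. The normexp median of the 4145 array features at or below the members' median level was 0.65, and 8 of the 12 orange features were brighter than that level.

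Away from stretch 4, Igkv14-111 had the largest difference of the locus with the processed signal. It read 135, 76.2 and 282 in wild type and 49.9, 23.8 and 51.5 in patDp/+, without overlap. Its log2 difference was -1.93 ± 0.52 (SE), with limma's adjusted p = 0.931, and it was -1.64, -1.74 and -2.41 by slide. It was -0.92 in the authors' deposited table, where ENSMUST00000103361 was lower at -0.95, and -0.50 after normexp, where AF152371 was lower at -0.54. ENSMUST00000103337, in stretch 3, read 28.0, 28.6 and 50.7 against 27.4, 17.6 and 16.3, close to background, and its difference was -0.86 ± 0.27 (SE) with limma's adjusted p = 0.931. That feature lost its unadjusted limma p under 0.05 without the second or without the last patDp/+ array. Its transcript is also among those that the design lists for the Igkv4-70 probe of stretch 4.

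Of the members that were higher, the V-J probe of Igkv1-117 was below the detection mark in all wild type animals. It read 15.5, 19.9 and 12.6 in wild type and 23.3, 34.1 and 39.5 in patDp/+. The level in patDp/+ was at least 1.57-fold higher, taken against the lowest signal well above background on each wild type array or the probe's own where higher, with limma's adjusted p = 0.931. Since detection in patDp/+ alone let this feature in, it had to differ, and its unadjusted p under 0.05 was lost after normexp, after quantile normalization and in the authors' deposited table. The other Igkv1-117 probe read 60.0, 111 and 47.3 in wild type and 98.9, 69.0 and 132 in patDp/+, with overlapping groups and a difference of 0.43 ± 0.38 (SE, adjusted p = 0.955).

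NAP100137-001 read 26.9, 30.7 and 31.5 in wild type and 37.0, 127 and 98.6 in patDp/+. The groups did not overlap, but the first patDp/+ animal stood close to wild type. Its unadjusted p under 0.05 was lost after quantile normalization and without any 1 of the arrays other than the first patDp/+ array. Its difference was 1.31 ± 0.45 (SE), with limma's adjusted p = 0.931. ENSMUST00000103318, which shares 37 bases with it, read 40.0, 55.8 and 96.0 against 51.2, 50.2 and 148, a difference of 0.21 ± 0.50 (SE). Another probe of the NAP100137-001 record read 3.48 to 5.62 and was below the detection mark on all arrays. The next members in that direction by unadjusted p, ENSMUST00000103404 (0.38 ± 0.25, SE) and U26471 (0.12 ± 0.10, SE), had limma's adjusted p = 0.952 and adjusted p = 0.955. The U26471 probe matches other kappa probes as their reverse complement, in a run of 26 bases, and so would not read the sense transcript; it stood between 73.4 and 103 on all arrays.

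The constant-region reading was set against the V segments by subtracting the mean log2 difference of the 39 other immunoglobulin or unnamed members from that of AF152371. The V mean was -0.27 and the constant-region difference -0.52, so the constant region minus the V segments came to -0.25. Per array, AF152371 minus the V mean was 5.28, 4.94 and 5.06 in wild type and 4.22, 5.05 and 5.26 in patDp/+. These are values of different probes, so only their change between animals is read. The groups overlapped, the first patDp/+ animal alone lay below the wild type range, and without it the value was 0.064. The order over slides was also unlike that of stretch 4: the constant-region difference was largest on slide 1 and that of stretch 4 on slide 3.

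The brightest 2 members carry no immunoglobulin label and share no long run with kappa probes. NAP017926-001 lay between 22333 and 27232 on all arrays, with a log2 difference of -0.02 ± 0.08 (SE). NAP029125-1 read 13032, 15621 and 17008 in wild type and 24167, 19879 and 13390.5 in patDp/+, a difference of 0.23 ± 0.20 (SE) with overlapping groups. A further member, AF043688, is by its record an envelope transcript of mouse mammary tumour virus, a retrovirus with copies in the mouse genome. Its difference was -0.09 ± 0.27 (SE). Keeping only the 34 features that were immunoglobulin by label or shared run left 8 lower features and a median of -0.17.

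The detection rule cut through a range of dim features. On exactly 3 arrays, 6 members were well above background: ENSMUST00000103305, NAP004513-003, the V-J probe of Igkv1-117, ENSMUST00000103331, ENSMUST00000103356 and 1 of the ENSMUST00000103377 probes. Their differences ran from -1.34 to 0.93. A further 7 features missed the rule by 1 array. Among these, Igkv9-120 read 22.6, 67.7 and 14.8 in wild type and 15.9, 4.81 and 7.43 in patDp/+, and Igkv3-4 read 30.6, 50.9 and 16.9 against 13.9, 6.46 and 7.73. Both were detected in wild type animals only. ENSMUST00000103333, also detected there only, was high in the wild type animals other than the second (78.0 and 74.6) and read 6.87 to 23.0 in the other 4. ENSMUST00000103315 was detected in patDp/+ animals only, at 31.0 and 231. The remaining 3, X67192, ENSMUST00000103369 and NAP061491-1, were each detected in 1 animal of each group. Another 13 features were detected on 1 array and 31 on none.

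Some V segments were high in a single animal. Of the 61 locus features detected on at least 1 array, 12 had 1 array at least 3 times above the next, or 19.7%, against 3.72% of all features detected at least once. The animals were the second wild type animal (4 features), the first and second patDp/+ animals (3 each), and the first wild type and the third patDp/+ animals (1 each). In the second patDp/+ animal, ENSMUST00000103309 read 161 and ENSMUST00000103315 read 231, against at most 5.83 and 31.0 elsewhere; the design lists both transcripts for both probes. In the second wild type animal, ENSMUST00000103303 read 71.5 and NAP096170-001, whose probe lies 203 bases further on, read 105, against at most 8.41 and 19.0 elsewhere. In the third patDp/+ animal, ENSMUST00000103302 read 245, against 22.0 to 66.5 elsewhere. These features spread the animals of a group apart: for ENSMUST00000103302 the SD of the patDp/+ animals was 1.76 on the log2 scale.

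**Figure D4:**
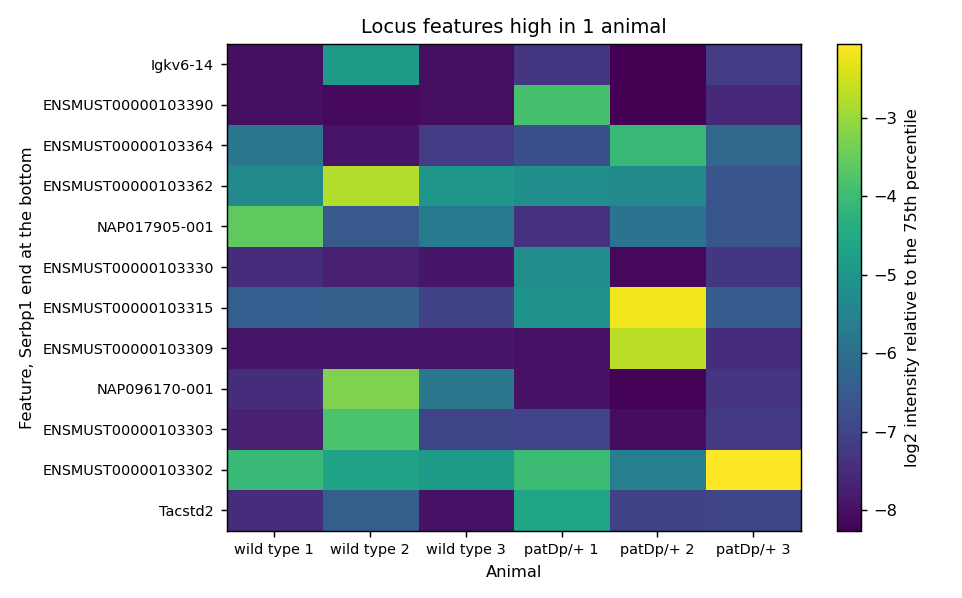
Log2 intensity relative to the 75th percentile of each array (colour) for the 12 locus features (rows, ordered by position) in which 1 of the 6 animals (columns) was at least 3 times above the next. The high cells fall in 5 animals of both groups, with neighbouring rows such as ENSMUST00000103309 and ENSMUST00000103315 high in the same animal.

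The genes that flank the locus gave no such pattern. The 10 nearest kept features on the Serbp1 side, which holds Serbp1 for an RNA-binding protein, had differences from -0.17 to 0.15 and none had p under 0.05. On the Rpia side, named for a pentose phosphate pathway enzyme, 9 of 10 lay between -0.17 and 0.10. The tenth was Cd8b1, a T cell coreceptor gene, at 1.16 ± 0.16 (SE, adjusted p = 0.503).

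Other immunoglobulin loci did not share one direction. All 6 lambda light chain features were lower at an unadjusted p under 0.05 (3.16% of all features), with a median log2 difference of -1.42. Their groups did not overlap (6.59% of all features). Most of the 6 are labelled Igl-V1 or lambda variable 1, and some of the probes overlap in position. They are therefore not independent readings of the locus. The brightest, of Igl-V1, read 288, 574 and 369 in wild type and 125, 204 and 168 in patDp/+. The 47 features of the heavy chain locus had a median of -0.06. At an unadjusted p under 0.05, 3 were lower and 2 higher, against 3.16% and 2.09% of all features. Igh-6, the constant region of IgM, had 3 features with differences of 0.11, 0.13 and 0.20. By slide the first was 1.22, -0.92 and 0.02, and the others were likewise negative on slide 2 only. The ENSMUST00000103416 features, labelled IgG2c, had 0.97 ± 1.17 and 0.69 ± 0.79 (SE), and ENSMUST00000103420, labelled IgG1, 0.61 ± 1.08 (SE). Those of ENSMUST00000103412, labelled Igh-VJ558, ran from 0.81 to 0.97. In all of these the groups overlapped. ENSMUST00000103418, labelled as the IgG2b constant region, was higher at 2.48 ± 0.63 (SE, adjusted p = 0.931), and ENSMUST00000103422, of IgG3, was lower at -0.60 ± 0.15 (SE, adjusted p = 0.931). After normexp all 6 lambda features were still lower, 1 of them at that threshold and with a median of -0.34, whereas the heavy chain median was 0.57 and the IgG3 difference 0.14. Whether the kappa differences differ from these was not tested.

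Genes of B cells were set beside the constant-domain feature. Of 19 B cell surface and receptor genes, 18 were measured. At an unadjusted p under 0.05, 7 were lower and 1 was higher, against 3.16% and 2.09% of all features. The median difference was -0.39, and after normexp the median was 0.25, with 1 lower and 3 higher. After normexp 5 of the 18 genes had a negative difference, against 14 with the processed signal. With 1 array left out the median lay between -0.49 and -0.32, but the count of lower genes was 5 without the second wild type array, 9 without the third patDp/+ array and 0 without any other. Ms4a1, which encodes CD20, had a difference of -1.25 ± 0.51 (SE, adjusted p = 0.942), and by slide it was -2.25, -1.05 and -0.45. Cd79b, a signalling chain of the B cell receptor, had -0.76 ± 0.28 (SE, adjusted p = 0.942), and by slide -1.25, -0.63 and -0.38. The order over slides is that of AF152371, largest on slide 1, and not that of stretch 4. Fcmr, a receptor for IgM, had -1.05 ± 0.35 (SE, adjusted p = 0.931), and Btk, a B cell and myeloid kinase, 0.38 ± 0.12 (SE, adjusted p = 0.931). These named genes kept their sign after normexp, at -0.79 for Ms4a1, -0.71 for Cd79b, -0.45 for Fcmr and 0.47 for Btk. Without the first patDp/+ array the difference of Ms4a1 was -0.76 and without the third it was -1.81. The summed level of the list was 8.59 to 9.20 in wild type and 7.79 to 8.53 in patDp/+, in units of the 75th percentile. Most of that sum came from Blnk, with mean log2 levels of 2.30 in wild type and 2.38 in patDp/+ (difference 0.08 ± 0.10, SE). The sum therefore says little about the other genes of the list.

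Of 13 plasma cell and antibody secretion genes, all were measured and only Mzb1, an endoplasmic reticulum protein of antibody-secreting cells, passed the unadjusted threshold, at -1.02 ± 0.36 (SE, adjusted p = 0.936), against 0.03 after normexp; it lost that threshold when any 1 array other than the second wild type or the third patDp/+ array was left out. The median was -0.01, 0.0014 after quantile normalization, 0.03 in the authors' deposited table and 0.08 after normexp. Jchain, the joining chain of secreted IgM and IgA, had -0.81 ± 0.41 (SE, adjusted p = 0.951). By slide it was -2.02, -0.66 and 0.24, without the first wild type array -0.38, and after normexp -0.75. Xbp1, a secretory regulator of plasma cells, had -0.04 ± 0.13 (SE). Of 20 regulators of kappa rearrangement and transcription, 16 were measured and none had p under 0.05, with a median of 0.03 that was -0.01 after normexp. Rag1 and Rag2, the recombinase that joins V to J, and Pax5 and Rel were below the detection mark on all arrays. Of 9 surrogate light chain and pre-B cell genes, 6 were measured, Vpreb3 was lower at -0.78 ± 0.30 (SE, adjusted p = 0.942; 0.03 after normexp; -0.51 without the first wild type array), and Igll1 was below that mark on all arrays.

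Among other cell types of the fat pad, 17 of 19 T and NK cell genes were measured, with a median of 0.35 (0.49 after normexp). At an unadjusted p under 0.05, 6 were higher and 1 lower, against 2.09% and 3.16% of all features. Lymph node stroma genes had a median of -0.19 over 9 of 13 genes (0.23 after normexp), and 4 of the 9 had a positive difference. Only Fcer2a, which is also on the B cell list, was lower at that threshold (-0.45 ± 0.18, SE). Cxcl13, a B cell attractant, read -1.28 ± 0.59 (SE, adjusted p = 0.948). All its patDp/+ values lay below all wild type values, as in 6.59% of all features. By slide it was -3.28, -0.39 and -0.18, without the first wild type array -0.64, and after normexp -0.83. The median was -0.10 for 10 adipocyte genes (-0.23 after normexp, with 1 lower), -0.10 for 8 epididymis and testis genes (0.53 after normexp), 0.13 for 5 red blood cell genes (0.01 after normexp) and 0.24 for 10 macrophage genes (0.15 after normexp, with 1 higher), and with the processed signal none of these genes had p under 0.05. The part of lymph node tissue or of B cell number in the kappa values was not tested.

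**Figure D5:**
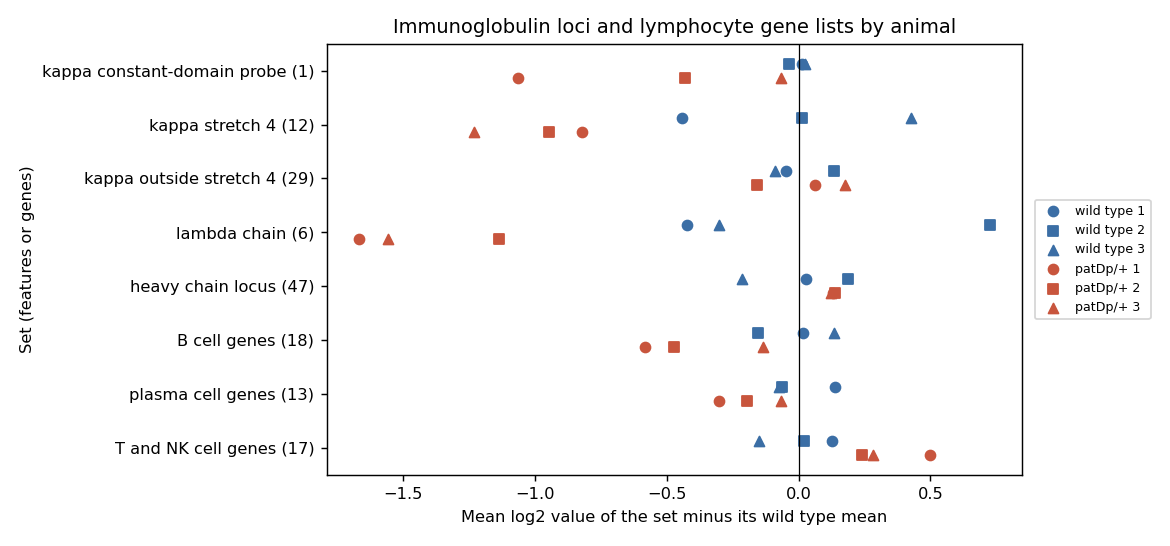
Mean log2 value of each set minus its wild type mean (x axis) for the kappa constant-domain probe, kappa features inside and outside stretch 4, the lambda and heavy chain features and 3 lymphocyte gene lists (y axis, number of features or genes in brackets), with 1 point per animal, wild type in blue and patDp/+ in red. The patDp/+ points of stretch 4 and of lambda lie below all wild type points, those of the other kappa features and of the heavy chain locus overlap wild type, and the first patDp/+ animal is lowest for the constant-domain probe and the B cell genes. These are processed-signal values. After normexp the median difference was 0.10 for stretch 4 and 0.25 for the B cell genes. It was 0.12 for all features and 0.65 for the 4145 array features at or below the median level of the kappa members. Of the 12 features of stretch 4, 8 were brighter than that level.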

How the data were processed

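The 6 one-colour (Cy3) arrays were grouped by title and genotype label, 3 per group. Scanner intensity values are as the authors deposited them: background-subtracted and detrended within each array by Feature Extraction 9.5.1.1, per the file headers. A deposited table by the authors, on a log2 scale and with background correction unstated, was an alternative. Tools in the submitters' processing notes are Agilent Feature Extraction 9.5 and, with its role unstated, limma 3.18.2.

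Each array's processed intensity was put on the log2 scale and its own 75th percentile subtracted. Control and outlier spots were left out, replicate spots were averaged, and features well above background on at least 3 of 6 arrays were kept. The group test was limma 3.58.1 (R 4.3.3), two-sided, with Benjamini-Hochberg adjustment over 27975 features and a threshold of 0.05; it was tested on simulated data. Arrays have no depth, and the number of animals limits the precision. Members and gene lists were chosen with earlier results of these data known. Named features were the constant-region feature, the 5 smallest p in each direction, the 3 highest levels and those at the edge of the detection rule; others were named after their values were seen. Lists used 1 probe per gene, that with the highest mean. Coordinates are the files' own (mm9); names came from the files and RefSeq, whose table held the accession of 27050 probes. Exon and UTR positions were not analysed here. Each slide held the same-numbered animal of both groups. Same-numbered animals deviated together with correlations of 0.12, -0.10 and -0.03 over features, so the numbers were not taken to pair animals. Alternatives changed the background correction (normexp with an offset of 50), normalization, filter, outliers, probe choice, slide block, weights, variance model and arrays.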

Additional observations from a re-analysis of the deposited data

How the results depend on the processing

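With 3 animals per group and most V features close to background, small differences were not detectable. No setting gave an adjusted call over all features with limma; unadjusted calls ranged from 1031 after normexp to 2420 without the third patDp/+ array. The count of 8 lower kappa features became 1 after normexp and stayed within 1.5 times under all other settings, from 7 to 12 when 1 array was left out. Their median of -0.12 became 0.44 after normexp and 0.043 with no filter (92 features), and lay between -0.24 and -0.10 when 1 array was left out. The constant region minus the V segments, -0.25, was -0.91 after normexp, -0.21 without features classed by position alone, and between -0.45 and 0.064 with 1 array left out, with the sign turned without the first patDp/+ array. The replicate block, which is also the slide block, gave 8 lower features and a median of -0.12, and changed none of these 4 results. The cause was not tested.

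After normexp the sign turned for stretch 4 as a whole (0.10), Igkv4-70 (0.058), ENSMUST00000103351 (0.17), ENSMUST00000103356 (0.41), the dimmer ENSMUST00000103377 probe (0.58), ENSMUST00000103337 (0.49), ENSMUST00000103357 (0.14), Igkv4-74 (0.44), ENSMUST00000103355 (0.41), ENSMUST00000103362 (0.19), ENSMUST00000103329 (0.42), ENSMUST00000103374 (0.62), Igkv3-7 (0.44), AF043688 (0.68) and NAP101217-1 (0.65). The normexp median was 0.12 for all features and 0.65 for the 4145 features at or below the members' median level. Of the 12 features of stretch 4, 8 were brighter than that level. After quantile normalization the sign turned for NAP004513-003 (-0.20) and ENSMUST00000103331 (-0.0072). In the deposited table it turned for ENSMUST00000103305 (-0.040) and NAP004513-003 (-0.033), and with array weights for ENSMUST00000103331 (-0.46). With 1 array left out, values ran from -0.38 to 0.82 for ENSMUST00000103305, -0.41 to 0.69 for NAP004513-003, -0.56 to 0.87 for ENSMUST00000103331 and -0.061 to 0.0051 for NAP017926-001. The cause was not tested.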
